A study of Bos taurus with 170 samples.

Results

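The 8 Day 3 bovine embryos of the series were compared by the time of the third cleavage, the division that takes an embryo to the eight-cell stage. An embryo was placed in the early group when this division came before 45 h 0 min post fertilization (hpf) and in the late group when it came at 45 h 0 min or later, and the hour of this division, called the cleavage time here, was also used as a continuous measure. The rule gave 5 early and 3 late embryos out of 14 embryos in the series, with 73 and 45 blastomeres (single embryonic cells) of at least 2000 unique molecular identifiers (UMI, tags that count original RNA molecules), 118 of the 161 such cells in the series.

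All embryos were made in vitro from matured oocytes, cultured under time-lapse imaging, freed of the zona pellucida and taken apart into single blastomeres, whose mRNA was read by SCRB-seq, a method that tags RNA with a cell barcode and a UMI before sequencing. No treatment or genotype separated the groups, and the embryos had been picked for cleavage times close to those of embryos that become blastocysts. In the early group the third cleavage came at 39 h 56 min in Day3-E8, 40 h 47 min in Day3-E4, 41 h 17 min in Day3-E2, 44 h 2 min in Day3-E3 and 44 h 15 min in Day3-E7. In the late group it came at 45 h 15 min in Day3-E6, 45 h 20 min in Day3-E5 and 47 h 7 min in Day3-E1. Values per embryo are given below in this order, E8, E4, E2, E3 and E7 and then E6, E5 and E1. The whole span was 7.18 h, and E3 and E7 lay closer to the late embryos than to the other early ones.

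Collection time differed between these embryos as well, together with a mark in the sample titles (p1, p2 or p3) whose meaning is not given in the sources used here. E1 to E4 carried p1 and were collected at 67 h, E5 and E6 carried p3 and were collected at 69 h, and E7 and E8 carried p2 and were collected at 71 h. Time from the third cleavage to collection was 31 h 4 min, 26 h 13 min, 25 h 43 min, 22 h 58 min and 26 h 45 min in the early embryos and 23 h 45 min, 23 h 40 min and 19 h 53 min in the late embryos. This interval differed by -4.11 h between late and early embryos (26.5 ± 2.92 h early and 22.4 ± 2.21 h late, mean ± SD over 5 and 3 embryos). A two-sided exact permutation test of this difference gave p = 0.107, and its 56 assignments allow no p below 0.0357. Late division and a short interval before collection cannot be told apart by group. Among the embryos marked p1, where all were collected at the same hour, E1 was the only late embryo.

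In cattle, the embryo lives on transcripts stored in the oocyte through its first divisions, and its own genome is switched on in a major wave around the eight- to 16-cell stage. This major genome activation brings in genes of transcription, RNA processing and ribosome formation while oocyte transcripts are broken down. How fast an embryo divides early on is used in embryology as a sign of its chance to reach the blastocyst stage.

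Oocyte and early embryo genes were present in every embryo, with 12 of 13 listed markers measured and a summed level of 5694 to 10589 CPM (UMI of a gene per 1000000 UMI on genes) in the early and 10009 to 10678 CPM in the late embryos. Of 17 cumulus and granulosa cell markers, 13 were measured, and their sum was 292 to 503 CPM in the early and 546 to 598 CPM in the late embryos, so that the groups did not overlap. The members did not move together. HAS2 and STAR were the largest in every late embryo, at 221 to 300 and 213 to 242 CPM. COL1A1 and TNFAIP6 were highest in early embryos, at 118 CPM in E8 and 44.8 CPM in E4. PTX3, CYP11A1, FOXL2, DCN, COL1A2, COL3A1 and VIM held 0 to 2 UMI per embryo. FSHR, LHCGR, CYP19A1 and LUM were not analysed here, and the part of cumulus and granulosa genes in the results below was not tested. The 4 measured of 7 sperm markers summed to 0 to 9.70 CPM in the early and 0 to 5.00 CPM in the late embryos. Both barcode sets held embryos of both groups, with E1 and E2 in the first and E4 to E8 in the second, and the labels do not settle E3. Where barcode set was used as a factor, E3 was counted with the first set. The share of UMI on ERCC spike-in RNA was at most 1.46% in E1, E2 and E3 and 2.43 to 2.98% in the other 5 embryos. Of the 123 Day 3 cells sequenced, 47 carried a barcode that a Day 2 cell also carried and 60 one that another Day 3 cell carried.

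Depth and cell number did not separate the groups. The median UMI per cell was 27301, 22462, 20218, 23491 and 21051 in the early embryos and 26247, 21664 and 44622 in the late embryos. E1, the last to divide, was the deepest, and the other embryos overlapped (difference of means 7939 UMI, exact permutation p = 0.143). When cells were thinned to 10000 UMI, the genes found in a cell had medians of 2928, 3025, 3290, 3289 and 3062 in the early and 3090, 3220 and 3285 in the late embryos (difference 79.5 genes, exact permutation p = 0.518). The groups also overlapped in cell number (15, 13, 14, 16 and 15 cells early and 14, 17 and 14 cells late; exact permutation p = 0.804) and in ERCC share (2.25 ± 0.74% and 2.27 ± 0.80%, SD; exact permutation p = 0.929). Over 7 values tested in this way, including the measures of distance from Day 2 given further on, the lowest adjusted p was 0.25.

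The first question was whether embryos on either side of 45 h differed in gene levels. UMI were summed over the cells of each embryo, so that the embryo was the replicate. In such sums, fewer cells expressing a gene and less of its RNA per cell cannot be told apart. Of 5191 genes with enough counts, 0 (0.00%) passed an adjusted p of 0.05 in edgeR's quasi-likelihood test, although 1209 (23.29%) had an unadjusted p under 0.05, 828 (15.95%) of them lower and 381 (7.34%) higher in the late embryos. DESeq2, run without this filter on 10256 genes, called 412, of which 385 were lower and 27 higher in the late embryos. It gave no adjusted p for 4575 of the 10256 genes. CPM ranges of the 5 early and 3 late embryos were apart for 233 genes (4.49%) higher in the early and 430 genes (8.28%) higher in the late embryos. The count of 0 depended on the fit. Without E3 edgeR called 688 genes, 530 of them lower in the late embryos. With all 8 embryos it called 873 with barcode set as a factor (E3 counted in the first set) and 257 of 10256 genes with no filter on low counts.

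The transcription factors PRDM14 and OVOL2 had the lowest p among genes lower in late embryos, none of which passed the adjusted threshold. PRDM14, a factor of pluripotent and germ cells, measured 113, 86.7, 84.8, 15.7 and 32.3 CPM in the early embryos and 6.58, 0 and 0 CPM in the late embryos. It was highest in the embryo that divided first and listed at 0 in the last 2, with a log2 fold change of -4.98 (SE 1.03, adjusted p = 0.143). OVOL2, a zinc finger factor of epithelial cells, measured 66.9, 32.9, 61.0, 18.3 and 29.1 CPM in the early embryos and 6.58, 2.599 and 1.67 CPM in the late embryos. All early embryos lay above all late ones, with a log2 fold change of -3.62 (SE 0.74, adjusted p = 0.143), and the Day 2 embryos held 1.32 to 9.11 CPM. The late embryos held only 3, 0 and 0 UMI of PRDM14 and 3, 1 and 1 UMI of OVOL2.

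Chemokine genes followed the same order only in part. GRO1, a CXC chemokine, measured 108, 218, 471, 94.3 and 35.6 CPM in the early embryos and 24.1, 5.20 and 13.33 CPM in the late embryos, with a log2 fold change of -3.77 (SE 0.81, adjusted p = 0.143). E2 was highest, at more than both embryos that divided before it, and the groups did not overlap. CXCL3, a near relative whose reads may be shared with GRO1, measured 43.8, 108, 278, 49.8 and 19.4 CPM in the early embryos and 10.96, 5.20 and 4.998 CPM in the late embryos. Its groups did not overlap either (log2 fold change -3.87 (SE 0.86, adjusted p = 0.143)). The late embryos held 11, 2 and 8 UMI of GRO1 and 5, 2 and 3 UMI of CXCL3.

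CUL2 and BMS1 were also among the genes with the lowest p in this direction. CUL2, the scaffold of a ubiquitin ligase, measured 43.8, 32.9, 88.2, 18.3 and 25.9 CPM in the early embryos and 6.58, 5.20 and 1.67 CPM (3, 2 and 1 UMI) in the late embryos. BMS1, a GTPase of small ribosomal subunit assembly, measured 366, 266, 292, 126 and 152 CPM in the early embryos and 76.7, 65.0 and 65.0 CPM in the late embryos, and its log2 fold change was -1.99 (SE 0.46, adjusted p = 0.143) and its slope with cleavage time -0.42 per hour (SE 0.06, adjusted p = 0.000563). In both genes every early embryo was above every late one. The same held for ZNF326, ZNRF1, C3H1orf109, SF3B1 and RNASEH1, whose log2 fold changes ran from -2.71 to -1.91 with adjusted p = 0.143.

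The largest fold changes were smaller among the genes with the lowest p in the other direction. C29H11orf84 measured 10.297, 8.97, 20.3, 47.1 and 32.3 CPM in the early embryos and 54.8, 198 and 163 CPM in the late embryos, a log2 fold change of 2.39 (SE 0.52, adjusted p = 0.143). CENPQ, a centromere protein, measured 134, 129, 142, 217 and 171 CPM in the early embryos and 375, 369 and 393 CPM in the late embryos, with a log2 fold change of 1.11 (SE 0.28, adjusted p = 0.143). TUBA1C, an alpha tubulin, measured 252, 398, 631, 728 and 598 CPM in the early embryos and 1350.0, 1112 and 1348 CPM in the late embryos. In these genes each late embryo was above each early one. The Day 2 embryos held 132 to 191 CPM of C29H11orf84, 250.1 to 378 CPM of CENPQ and 1058 to 1736 CPM of TUBA1C. SEPP1, which encodes the selenium carrier selenoprotein P, measured 64.4, 56.8, 112, 175 and 84.1 CPM in the early embryos and 322, 291 and 202 CPM in the late embryos, and PATZ1, a transcription factor, measured 5.15, 14.94, 10.17, 26.2 and 9.70 CPM in the early embryos and 57.0, 44.2 and 58.3 CPM in the late embryos. Their log2 fold changes were 1.35 (SE 0.36, adjusted p = 0.143) and 1.84 (SE 0.49, adjusted p = 0.143). The early embryos held only 2, 5, 3, 10 and 3 UMI of PATZ1 and 4, 3, 6, 18 and 10 UMI of C29H11orf84. The remaining genes named in this direction were TMEM150A, CHMP4B, MGC148714, CDC42SE2, ZNF706 and CMTM8, whose groups did not overlap, and C20H5orf47, whose groups did.

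The second question used the cleavage time itself. A slope per hour of cleavage time was called for 1857 of the 5191 genes (35.77%) by edgeR's test, 1138 (21.92%) lower and 719 (13.85%) higher with later division, and 2554 genes had an unadjusted p under 0.05. The median slope over all genes tested was 0.03 on the log2 scale per hour. Across the span of 7.18 h, genes called lower fell by a median of 2.43 on the log2 scale and genes called higher rose by a median of 1.77. Without TMM scaling the split of the calls was 906 lower and 1183 higher, so the balance of directions rests on the scaling, and with DESeq2's size factors it was 1236 and 545. Rank correlation of CPM with cleavage time, tested over all 40320 orders of the embryos, called 784 genes, 376 (7.24%) of them lower and 408 (7.86%) higher with later division.

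The number of calls depended on which embryos were in the fit. Without E8, the first to divide, 635 genes were called, 564 of them lower and 71 higher. Without E4 1170 genes were called and without E1, the last, 1226. Calls of a higher level numbered 321 without E4, 416 without E1 and 426 without E5. Without both E4 and E8, the embryos farthest from the median time, 2 genes were called, GRO1 and CXCL3, and 734 had an unadjusted p under 0.05. Without both E1 and E8 the count was 7, all lower with later division (UCK2, GRO1, CXCL3, FAR1, GABARAPL1, PLRG1 and SLC39A10; these and the pair before them were named after their values were seen). Fitted slopes in these sets of 6 embryos can be set beside those of all 8. That of UCK2, given further on, was -0.58 without E1 and E8 and -0.63 without E4 and E8, and that of BMS1 was -0.45 and -0.43. The 4 embryos marked p1 alone gave 1134 calls, the 5 embryos of the second barcode set alone gave 1414, and barcode set as a factor gave 2164. The plot of calls by embryos in the fit shows the counts for each set of embryos.

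**Figure D1:**
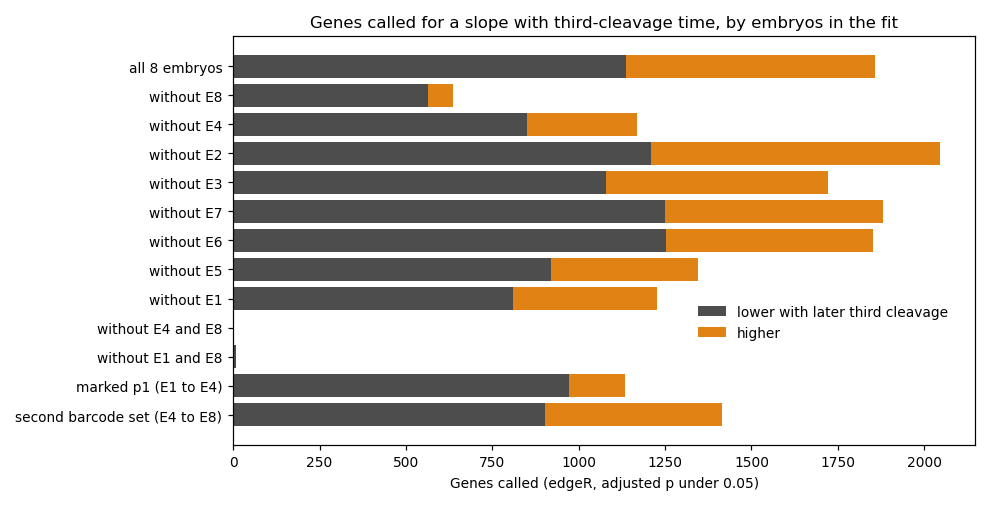
Number of genes called for a slope with cleavage time (x axis; edgeR, adjusted p under 0.05), for fits with the embryos named on the y axis, split into genes lower (dark) and higher (orange) with later cleavage. All 8 embryos gave 1857 calls, 635 were left without E8, and 2 and 7 were left without the pairs E4 with E8 and E1 with E8.

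UCK2 and EMC10 were among the 10 genes with the smallest p of the falling slopes. UCK2, a uridine-cytidine kinase, measured 553, 475, 502, 118 and 133 CPM in the early embryos and 138, 57.2 and 39.99 CPM in the late embryos, a slope of -0.58 per hour (SE 0.06, adjusted p = 0.000563). Its values lay in a high set of the first 3 embryos and a low set of the other 5, with E3 and E7 beside E6. EMC10, a subunit of the endoplasmic reticulum membrane protein complex, measured 206, 203, 112, 47.1 and 61.4 CPM in the early embryos and 39.5, 20.8 and 19.99 CPM in the late embryos, a slope of -0.55 per hour (SE 0.07, adjusted p = 0.000563). It followed the order of division more evenly, with Spearman's rho of -0.98 (exact permutation p = 0.000397, adjusted p = 0.0294) and Pearson's r of -0.93 (exact permutation p = 0.000149), with r at -0.94 without E8 and E4.

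TAF11, a subunit of the general transcription factor TFIID, measured 543, 389, 217, 94.3 and 194 CPM in the early embryos and 92.0, 67.6 and 33.3 CPM in the late embryos, a slope of -0.55 per hour (SE 0.07, adjusted p = 0.000563). Every early embryo was above every late one, and E1 was inside the Day 2 range of 23.04 to 44.9 CPM. EWSR1, an RNA-binding protein, measured 209, 95.6, 109, 20.9 and 51.7 CPM in the early embryos and 10.96, 18.2 and 8.33 CPM in the late embryos, and WDR55, a WD-repeat protein of ribosomal RNA maturation, measured 322, 167, 98.3, 39.3 and 71.1 CPM in the early embryos and 41.6, 28.6 and 11.66 CPM in the late embryos. Their slopes were -0.67 per hour (SE 0.08, adjusted p = 0.000563) and -0.62 per hour (SE 0.07, adjusted p = 0.000563). PLS3, an actin-bundling protein, and C23H6orf62 completed the 10 genes together with ISG20L2, CXADR and ATP5B given below, with slopes of -0.66 per hour (SE 0.08, adjusted p = 0.000563) and -0.59 per hour (SE 0.08, adjusted p = 0.000563).

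Rising slopes were smaller. ELN, which encodes elastin, measured 23.2, 23.9, 27.1, 70.7 and 93.8 CPM in the early embryos and 96.4, 143 and 147 CPM in the late embryos, so that in CPM each embryo was above all that divided before it. E8, E4 and E2 held 9, 8 and 8 UMI of it, so the order among these embryos rests on their total UMI. ELN had Spearman's rho of 1.00 (exact permutation p = 4.96e-05, adjusted p = 0.0234) and Pearson's r of 0.95 (exact permutation p = 2.48e-05), with r at 0.93 without E8 and E4. In the rank test, 4.96e-05 is the smallest p that 8 embryos allow. Of the 5191 genes, 4 had rho at 1 and 7 had rho at -1. ILDR1, a protein of tricellular junctions, measured 41.2, 56.8, 74.6, 170.2 and 126 CPM in the early embryos and 215, 257 and 289.9 CPM in the late embryos, a slope of 0.36 per hour (SE 0.06, adjusted p = 0.000987). GATA2, a transcription factor, measured 36.04, 59.8, 98.3, 159.7 and 178 CPM in the early embryos and 178, 195 and 359.9 CPM in the late embryos, a slope of 0.35 per hour (SE 0.06, adjusted p = 0.000987). Both were lowest in E8 and highest in E1.

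RGS2, a regulator of G protein signalling, was the most abundant of the rising genes, with 582, 1037, 1689, 3558 and 2075 CPM in the early embryos and 2759, 4920.4 and 5235 CPM in the late embryos. Its slope was 0.35 per hour (SE 0.06, adjusted p = 0.00141), and the 2 latest embryos were inside the Day 2 range of 4319 to 5345 CPM. CNN3, a calponin, measured 36.04, 80.7, 136, 244 and 181 CPM in the early embryos and 274, 416 and 408 CPM in the late embryos, and SPCS1, a signal peptidase subunit, measured 51.5, 50.8, 64.4, 170.2 and 119.6 CPM in the early embryos and 173, 244 and 257 CPM in the late embryos. LOC788736, RNF114, LPPR1 and C29H11orf84 were the other genes with the smallest p in this direction, with slopes from 0.31 to 0.59 per hour. Day 2 ranges and all 8 embryos are shown for 8 genes in the plot of gene levels against cleavage time.

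**Figure D2:**
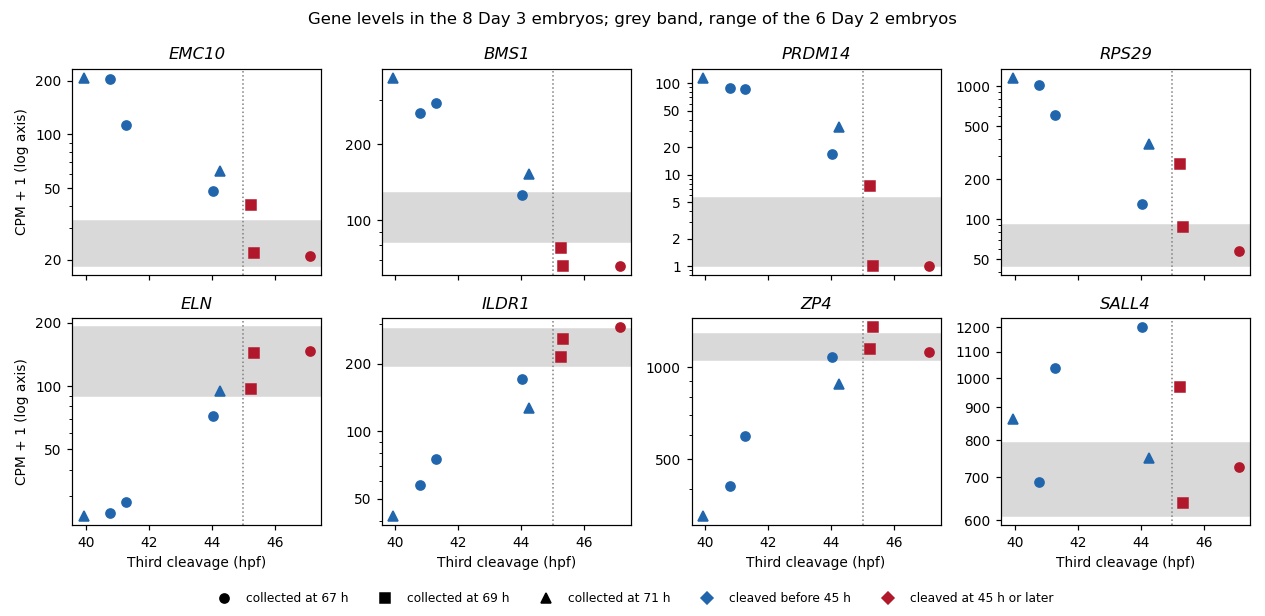
CPM plus 1 (y axes, logarithmic, a separate range for each gene) against the time of the third cleavage in hours post fertilization (x axis) for 8 genes, one symbol per Day 3 embryo, with colour for the group and shape for the hour of collection. Grey bands span the 6 Day 2 embryos. EMC10, BMS1, PRDM14 and RPS29 were lower and ELN, ILDR1 and ZP4 higher in embryos that divided later, while SALL4 showed no called slope (adjusted p = 0.339).

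Gene lists were then read against the share of all genes called. The list furthest from that share was the markers of cluster K4, a cluster of Day 3 cells defined in the study. In the study, most cells of this cluster came from E8 and E4, the first embryos to divide, and the rest from E7. The K4 markers were chosen on the same cells and are no independent evidence of the order. TAF11, given above, is one of them, and the study also names FOLR1, NANOG, KLF5, RPS29, RPS19 and RPL37, given further on. Of the 88 markers, all tested, 85 were lower and 0 higher with later division, against 21.92% and 13.85% of all genes. Their median slope was -0.52 per hour against 0.03. Lower calls numbered 67 to 88 with 1 embryo left out, and the median slope was -0.41 without E1 and E8 and -0.46 without E4 and E8. In both of these fits 0 markers were called, against 7 and 2 of all genes tested. ISG20L2, a nucleolar exonuclease of ribosomal RNA processing, measured 260.0, 143, 115, 5.24 and 51.7 CPM in the early embryos and 8.77, 10.397 and 1.67 CPM in the late embryos, a slope of -0.90 per hour (SE 0.11, adjusted p = 0.000563). CXADR, an adhesion receptor of tight junctions, measured 445, 239, 285, 94.3 and 100.2 CPM in the early embryos and 107, 36.4 and 31.7 CPM in the late embryos, a slope of -0.54 per hour (SE 0.07, adjusted p = 0.000563). In ISG20L2 the early embryo E3 was below the late embryos E6 and E5, and in CXADR it was below E6. E3 held 2 UMI of ISG20L2 and the late embryos 4, 4 and 1 UMI, so its order there rests on few counts.

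A list of genes first transcribed at the eight-cell stage came from earlier work on other embryos, and was limited in the study to genes detected in these samples. Of its 20 genes, 9 had enough counts. Of these, 8 (88.89%) were lower and 0 higher with later division, against 21.92% and 13.85% of all genes (median slope -0.64 against 0.03). Genes with few counts could pass the filter through the embryos where they were high, so these counts are no independent evidence of the order. PCDH10, a protocadherin, measured 48.9, 26.9, 37.3, 5.24 and 16.16 CPM in the early embryos and 2.19, 2.599 and 0 CPM in the late embryos, a slope of -0.77 per hour (SE 0.13, adjusted p = 0.00122). CRABP1, a retinoic acid-binding protein, measured 51.5, 44.8, 71.2, 5.24 and 19.4 CPM in the early embryos and 4.38, 2.599 and 4.998 CPM in the late embryos, a slope of -0.66 per hour (SE 0.11, adjusted p = 0.00125). Each early embryo was above each late one in both genes, but E3 held 2 UMI of either gene and the late embryos 0 to 3. DDX3Y, a helicase whose reads may be shared with its X-linked copy, measured 363, 323, 322, 175 and 233 CPM in the early embryos and 179.7, 78.0 and 61.6 CPM in the late embryos, a slope of -0.36 per hour (SE 0.07, adjusted p = 0.00166). FOLR1, a folate receptor, measured 1112, 1121, 288, 107 and 304 CPM in the early embryos and 309, 107 and 9.997 CPM in the late embryos, and its slope was -0.65 per hour (SE 0.13, adjusted p = 0.00233). E7 and E6 had about the same FOLR1 level on either side of the 45 h limit. FOLR1 is also a K4 marker of the study.

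Pluripotency and lineage factors went in both directions. KLF5 and NANOG, given below, are also K4 markers of the study. Of 44 listed genes, 29 were in the table and 19 had enough counts, of which 7 were lower and 2 higher with later division, with a median slope of -0.11. With 1 embryo left out, 5 to 10 were lower and 1 to 4 higher. KLF5, a Krüppel-like factor of the early lineages, measured 288, 374, 102, 52.4 and 97.0 CPM in the early embryos and 83.3, 15.596 and 9.997 CPM in the late embryos, a slope of -0.62 per hour (SE 0.11, adjusted p = 0.00118). KLF3, a relative that acts as a repressor, measured 131, 212, 146, 15.7 and 48.5 CPM in the early embryos and 37.3, 5.20 and 6.67 CPM in the late embryos, a slope of -0.69 per hour (SE 0.11, adjusted p = 0.000796). KLF4 had a slope of -0.32 per hour (SE 0.10, adjusted p = 0.0199), with 207 CPM in E1 and 671 to 2340 CPM in the other 7 embryos.

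NANOG, a factor of the pluripotent epiblast, measured 92.7, 176, 13.56, 23.6 and 71.1 CPM in the early embryos and 48.2, 10.397 and 1.67 CPM in the late embryos. Its slope was -0.51 per hour (SE 0.15, adjusted p = 0.0201), and E2 and E3, both early, lay below the late embryo E6. SALL4, a zinc finger factor of pluripotent cells, measured 862, 687, 1038, 1199 and 750.0 CPM in the early embryos and 967, 637 and 726 CPM in the late embryos, with a slope of -0.07 per hour (SE 0.06, adjusted p = 0.339). MYC measured 41.2, 47.8, 23.7, 31.4 and 22.6 CPM in the early embryos and 103, 18.2 and 6.67 CPM in the late embryos, with its highest value in a late embryo, and POU5F1 measured 15.45, 2.99, 54.3, 36.7 and 35.6 CPM in the early embryos and 43.8, 38.99 and 55.0 CPM in the late embryos. Their slopes were -0.11 per hour (SE 0.14, adjusted p = 0.544) and 0.17 per hour (SE 0.11, adjusted p = 0.204), so none of these 3 factors passed the test. FOSL1, an AP-1 factor, had a slope of 0.29 per hour (SE 0.12, adjusted p = 0.0685). CDX2 had 0 to 6 UMI and SALL1 0 to 8 UMI per embryo and neither was tested.

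Genes of ribosome production were among those most often called lower. Of 78 cytosolic ribosomal protein genes, 75 had enough counts, and 56 (74.7%) were lower and 0 higher with later division, with a median slope of -0.30. Without E8, 28 were lower and the median slope was -0.28. Their summed level was 73278, 61894, 45129, 26710.4 and 54965 CPM in the early embryos and 36077, 30676 and 21698 CPM in the late embryos. The sum in E7 was above that in E2, which divided earlier, and the sum in E3 was below those of the late embryos E6 and E5. RPS29 measured 1148, 1016, 604, 128 and 365 CPM in the early embryos and 261, 85.8 and 56.6 CPM in the late embryos, a slope of -0.61 per hour (SE 0.08, adjusted p = 0.000581). RPS18 measured 1375, 1479, 1319, 579 and 869.6 CPM in the early embryos and 438, 338 and 335 CPM in the late embryos, and RPL14 measured 471, 427, 342, 89.0 and 181 CPM in the early embryos and 109.6, 98.8 and 86.6 CPM in the late embryos. Their slopes were -0.38 per hour (SE 0.06, adjusted p = 0.000717) and -0.43 per hour (SE 0.06, adjusted p = 0.000563). Ribosomal protein genes have many processed copies in the genome, so reads of single members may be shared. RPS29 is also a K4 marker of the study.

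Ribosome biogenesis factors, which make and assemble ribosomal subunits, showed the same direction. Of 91 measured genes 83 had enough counts, with 45 lower and 2 higher and a median slope of -0.21. Without E8, 23 were lower and 0 higher, at a median slope of -0.17. Their sum was 28045, 21435, 21617, 16658 and 18052 CPM in the early embryos and 14305, 14410.3 and 15767 CPM in the late embryos, with no overlap between the groups. IMP4, of the small subunit processome, measured 394, 284, 244, 113 and 152 CPM in the early embryos and 101, 80.6 and 66.6 CPM in the late embryos, a slope of -0.40 per hour (SE 0.05, adjusted p = 0.000563). EIF6, which keeps the subunits apart, measured 752, 583, 295, 89.0 and 281 CPM in the early embryos and 129, 98.8 and 55.0 CPM in the late embryos, a slope of -0.54 per hour (SE 0.08, adjusted p = 0.000592). The 2 genes called higher were NAT10 and POLR1B, named after their values were seen, and their slopes were 0.15 per hour (SE 0.05, adjusted p = 0.0458) and 0.29 per hour (SE 0.09, adjusted p = 0.0214). Mitochondrial ribosome genes were near the background in lower calls, with 12 of 55. They were below it in higher calls, with 2 (3.64% against 13.85% of all genes). Their median slope was -0.0049, and 5 were lower without E8. MRPL22 measured 175, 197, 91.6, 34.04 and 61.4 CPM in the early embryos and 30.7, 20.8 and 14.99 CPM in the late embryos.

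Translation and splicing lists were also above the background share. Among 44 translation factors, 22 were lower and 1 higher (median slope -0.17), and among 80 splicing genes 39 were lower and 2 higher (median slope -0.19). Without E8 these counts of lower genes were 8 and 18, with median slopes of -0.15 and -0.19. ETF1, the release factor that ends translation, measured 1092, 1010.2, 573, 175 and 488 CPM in the early embryos and 289, 182 and 61.6 CPM in the late embryos, a slope of -0.53 per hour (SE 0.08, adjusted p = 0.000809). EIF3G, an initiation factor subunit, measured 85.0, 98.6, 84.8, 41.9 and 35.6 CPM in the early embryos and 26.3, 18.2 and 16.66 CPM in the late embryos, a slope of -0.43 per hour (SE 0.07, adjusted p = 0.00094). SF3B5, a component of the U2 small nuclear ribonucleoprotein, measured 1714, 1599, 871, 388 and 792 CPM in the early embryos and 445, 273 and 112 CPM in the late embryos, a slope of -0.52 per hour (SE 0.08, adjusted p = 0.000687). In ETF1 and SF3B5 the early embryo E3 was below the late embryo E6, and in EIF3G all early embryos were above all late ones. SNRPD2, a core spliceosome protein, had a slope of -0.45 per hour (SE 0.08, adjusted p = 0.00123).

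Metabolic and protein turnover lists held single genes with steep slopes but stood nearer to the background. Of 40 genes of nucleotide and one-carbon synthesis, 15 were lower and 4 higher, with a median slope of -0.03. CAD, which starts pyrimidine synthesis, measured 229, 194, 146, 10.47 and 90.5 CPM in the early embryos and 37.3, 12.996 and 3.33 CPM in the late embryos, a slope of -0.71 per hour (SE 0.11, adjusted p = 0.00094). MTHFD1L, a mitochondrial enzyme of the folate cycle, measured 512, 278, 159, 39.3 and 126 CPM in the early embryos and 92.0, 25.99 and 13.33 CPM in the late embryos, a slope of -0.64 per hour (SE 0.09, adjusted p = 0.000706). Both genes were lowest in E1 and highest in E8. Calls of a higher level in this list fell to 0 without E8 and 2 without E4. Proteasome genes gave 11 lower and 1 higher of 37 (median slope -0.03), with PSMB5 at -0.41 per hour (SE 0.07, adjusted p = 0.00125), and 5 lower without E8. Oxidative phosphorylation genes gave 13 lower and 5 higher of 50 (median slope -0.04), and ATP5B, the catalytic subunit of ATP synthase, measured 402, 218, 207, 55.0 and 133 CPM in the early embryos and 61.4, 54.6 and 30.0 CPM in the late embryos, a slope of -0.53 per hour (SE 0.07, adjusted p = 0.000563). Of the oxidative phosphorylation genes called higher, 0 were left without E8 and 1 without E4, E5 or E1.

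Chaperone, cell cycle and stress lists were close to the background in their share of lower calls. Chaperones gave 10 lower and 4 higher of 50, cell cycle genes 14 and 3 of 61, and stress and p53 genes 6 and 7 of 28, with median slopes of 0.0032, -0.0062 and 0.03. Without E8 the same counts were 5 and 1, 8 and 1, and 2 and 0. Lower calls in the cell cycle list were 9 without E4 and 8 without E1, and the stress list gave 3 lower without E1 and 3 higher without E4. Chaperones called higher were 2 without E4, E5 or E1. CDK1, the kinase that drives entry into mitosis, measured 769.7, 406, 543, 107 and 272 CPM in the early embryos and 118, 130.0 and 99.97 CPM in the late embryos, a slope of -0.47 per hour (SE 0.06, adjusted p = 0.000581). CKS1B, a subunit that binds such kinases, went the other way with 551, 1166, 895, 2069 and 1933 CPM in the early embryos and 2047, 3735 and 3229 CPM in the late embryos, a slope of 0.29 per hour (SE 0.06, adjusted p = 0.00349). HSPA8, a cytosolic heat shock cognate, measured 1969, 977, 1261, 683 and 676 CPM in the early embryos and 767, 296 and 253 CPM in the late embryos, a slope of -0.39 per hour (SE 0.07, adjusted p = 0.0012). PRDX1, a peroxidase, measured 252, 314, 539, 686 and 727 CPM in the early embryos and 842, 990.3 and 986 CPM in the late embryos, a slope of 0.23 per hour (SE 0.05, adjusted p = 0.00607). PRDX1 was inside the Day 2 range of 793 to 1075 CPM in all late embryos, and CKS1B inside that of 2511 to 4327 CPM in E5 and E1.

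Smaller lists gave few calls in number, but several had a share of lower calls above the 21.92% of all genes. These were aminoacyl-tRNA synthetases, histone and DNA methylation enzymes, adhesion genes, the BCL2 family and sex chromosome genes. Among them only the BCL2 family was above the 13.85% of all genes called higher. Such shares rest on small numbers of genes, and their distance from the background was not tested. Aminoacyl-tRNA synthetases gave 4 lower and 0 higher of 17, histone and DNA methylation enzymes 8 and 4 of 32, and adhesion genes 6 and 2 of 19. With 1 embryo left out, the last 2 lists gave 5 to 9 lower and 0 to 5 higher, and 5 to 7 lower and 0 to 4 higher. SETDB2, a histone methyltransferase, measured 139, 140.5, 81.4, 55.0 and 58.2 CPM in the early embryos and 19.7, 31.2 and 24.99 CPM in the late embryos, a slope of -0.44 per hour (SE 0.07, adjusted p = 0.00094). The BCL2 family gave 2 lower and 1 higher of 5 tested, with DIABLO, an activator of caspases, at -0.45 per hour (SE 0.13, adjusted p = 0.0203) and BCL2L2, a survival protein, at 0.25 per hour (SE 0.09, adjusted p = 0.0418), and 0 to 3 lower with 1 embryo left out. Of 7 sex chromosome genes, 2 were lower and 0 higher. The longer list of cumulus and granulosa genes gave 0 lower and 1 higher of 5 tested, the latter being STAR, a cholesterol carrier, with 30.9, 80.7, 81.4, 131 and 155 CPM in the early embryos and 213, 242 and 213 CPM in the late embryos. No gene of the sperm list was called among 2 tested, ODF2 and LDHC, with slopes of 0.11 per hour (SE 0.07, adjusted p = 0.226) and 0.23 per hour (SE 0.10, adjusted p = 0.0803), though 1 was called higher without E2.

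**Figure D3:**
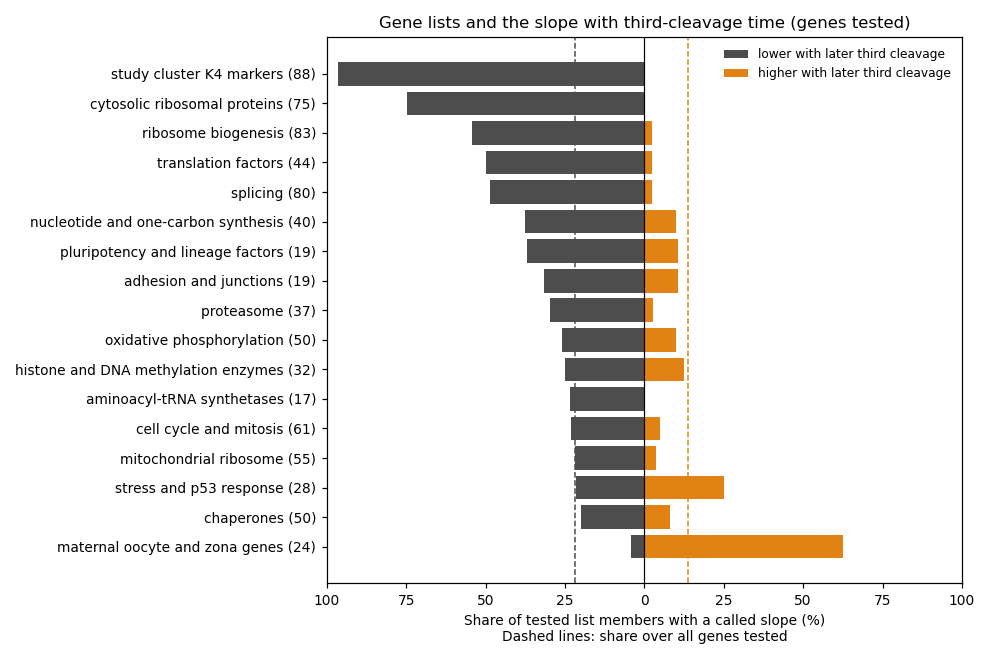
Share of tested members of each gene list (x axis, percent; number tested in brackets) called lower (dark bars, to the left) or higher (orange bars, to the right) with a later cleavage, for lists with 15 or more tested genes. Dashed lines mark all 5191 genes tested, 21.92% lower and 13.85% higher. Cluster K4 markers and ribosomal protein genes reach furthest to the left, and oocyte and zona genes furthest to the right.

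Oocyte genes were called higher more often than lower. Of 54 listed genes 26 were in the table and 24 had enough counts, with 15 higher and 1 lower with later division, and a median slope of 0.20. The higher calls were 2 without E8, 7 without E4 and 8 without E5 or E1, with median slopes of 0.16, 0.19, 0.20 and 0.21. Their summed level was 5548, 10467, 12512, 20180.1 and 16934 CPM in the early embryos and 16854, 20430.2 and 20455 CPM in the late embryos, and 20551 to 23894 CPM in the Day 2 embryos. The first embryo to divide held the least, and E3, E5 and E1 were just under the lowest Day 2 embryo. ZP4, a zona pellucida glycoprotein, measured 327, 409, 597, 1076 and 883 CPM in the early embryos and 1144, 1349 and 1125 CPM in the late embryos, a slope of 0.24 per hour (SE 0.06, adjusted p = 0.00699), with Spearman's rho of 0.90 (exact permutation p = 0.00456, adjusted p = 0.0428) and Pearson's r of 0.92 (exact permutation p = 0.00263), with r at 0.80 without E8 and E4. DAZL, an RNA-binding protein of germ cells, measured 54.1, 68.7, 84.8, 233 and 136 CPM in the early embryos and 140.3, 189.7 and 385 CPM in the late embryos, a slope of 0.31 per hour (SE 0.06, adjusted p = 0.00248). RNF114, a ubiquitin ligase, measured 162, 242, 231, 599.6 and 575 CPM in the early embryos and 712, 793 and 838 CPM in the late embryos, a slope of 0.31 per hour (SE 0.06, adjusted p = 0.00139). BRDT, a bromodomain protein known from the testis, was the member called lower, with 255, 377, 295, 139 and 155 CPM in the early embryos and 109.6, 70.2 and 30.0 CPM in the late embryos and 6.41 to 15.36 CPM on Day 2.

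Cluster K1 held most Day 2 cells in the study, and its Day 3 cells came only from E1, E2 and E3. Its markers were likewise defined on these samples. Of 12 such genes 8 were tested, with 4 higher and 0 lower, and 1 and 2 higher without E8 and without E1. TIGAR, a fructose bisphosphatase, measured 7.72, 17.9, 37.3, 94.3 and 45.3 CPM in the early embryos and 70.1, 59.8 and 145 CPM in the late embryos, a slope of 0.40 per hour (SE 0.09, adjusted p = 0.00377). F3, the tissue factor of coagulation, measured 12.9, 74.7, 81.4, 173 and 77.6 CPM in the early embryos and 131, 211 and 208 CPM in the late embryos, a slope of 0.31 per hour (SE 0.09, adjusted p = 0.0156). In 2 others the values did not follow the clock. UCHL1, a deubiquitinase, measured 0, 2.99, 50.9, 89.0 and 6.47 CPM in the early embryos and 4.38, 20.8 and 53.3 CPM in the late embryos, and COG2, a Golgi complex subunit, measured 7.72, 14.94, 81.4, 96.9 and 9.70 CPM in the early embryos and 8.77, 33.8 and 99.97 CPM in the late embryos. E2, E3 and E1 had the highest values of both genes. They are the 3 embryos with the low ERCC share and also the only Day 3 embryos with cells of cluster K1. The slopes of UCHL1 and COG2 were 0.20 per hour (SE 0.20, adjusted p = 0.43) and 0.16 per hour (SE 0.15, adjusted p = 0.395). The parts of library handling and of the choice of markers in these values were not tested.

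Single blastomeres were also set beside the order of the embryos. K4 markers were chosen on these cells, with most cells of the cluster in E8 and E4. Their values are no further evidence of the order. In cells thinned to 10000 UMI, the K4 markers took a median of 411 UMI in E8 (range 322 to 541, 14 cells), 339 in E4 (280 to 529, 11 cells), 194 in E2 (130 to 253, 13 cells), 59 in E3 (20 to 113, 13 cells) and 148 in E7 (109 to 402, 12 cells). The late embryos had 131 in E6 (24 to 188, 14 cells), 51 in E5 (37 to 115, 13 cells) and 24 in E1 (11 to 32, 13 cells). No cell of E1 reached the lowest cell of E8, E4, E2, E7 or E5. E7 had the widest range, and its highest cells overlapped those of E8 and E4 while its lowest reached those of E3. Ribosomal protein genes took a median of 738 UMI per cell in E8 and 221 in E1, with ranges of 556 to 1009 and 168 to 300. For oocyte and zona genes the order was turned round, with a median of 49 UMI in E8 (34 to 80) and 201 in E1 (169 to 255). Cells of an embryo are not replicates, and these ranges were not tested.

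**Figure D4:**
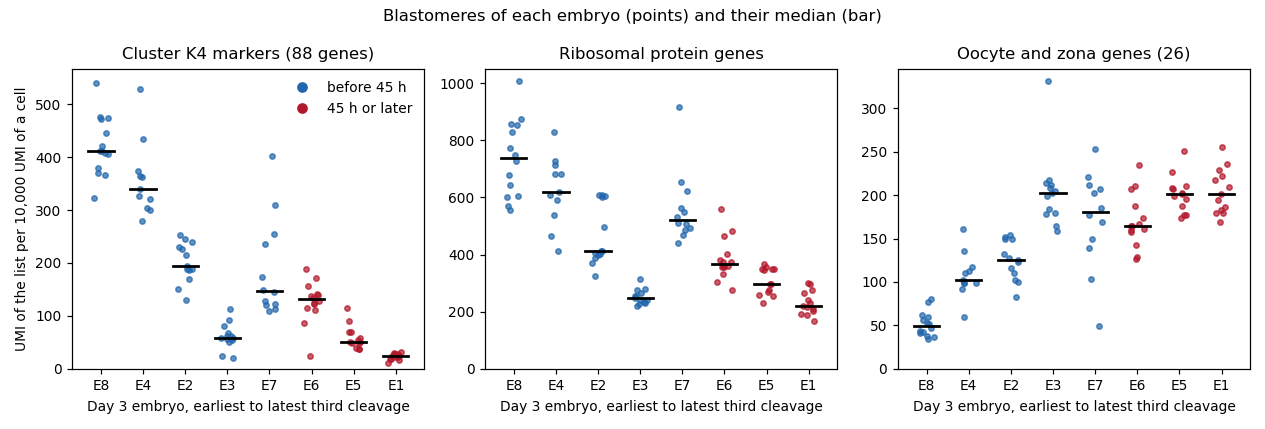
UMI of 3 gene lists per 10000 UMI of a cell (y axes) in the blastomeres of each Day 3 embryo, ordered on the x axis from the earliest to the latest cleavage, with points for cells, bars for medians and colour for the group. Medians of the cluster K4 markers run from 411 in E8 to 24 in E1, with E3 below E7 and E6, and medians of oocyte and zona genes run from 49 to 201.

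Day 2 embryos, collected around the third cleavage, served as a reference from outside the comparison. Over the 5191 genes, the median absolute log2 difference of CPM plus 1 from the Day 2 mean was 1.48, 1.23, 0.74, 0.39 and 0.86 in the early embryos and 0.68, 0.45 and 0.26 in the late embryos. The group means, 0.94 ± 0.43 (SD, n = 5) and 0.46 ± 0.21 (SD, n = 3), did not differ beyond the spread (exact permutation p = 0.125). Against the time of the third cleavage, this distance had Spearman's rho of -0.81 (exact permutation p = 0.0218, adjusted p = 0.0762 over 7 values) and Pearson's r of -0.86 (exact permutation p = 0.00593, adjusted p = 0.0215), with r at -0.61 without E8 and E4. The number of genes outside the range of the 6 Day 2 embryos was 4543, 4378, 3885, 2781 and 4012 in the early and 3688, 3072 and 1988 in the late embryos, again lowest in E1. All embryos share one Day 2 reference, and with embryo sums thinned to 294912 UMI rho was -0.81 as well.

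E3 and E7 were the embryos that stood out of this order. They divided 13 min apart, but E3 was collected at 67 h and E7 at 71 h, and E3 had the smaller distance of the pair. Ordered by hours from the third cleavage to collection instead, E8, E7, E4, E2, E6, E5, E3 and E1 had distances of 1.48, 0.86, 1.23, 0.74, 0.68, 0.45, 0.39 and 0.26, with E4 above E7 as the one exception to a falling row. The slope with this interval was called for 1950 genes and its rank correlation for 1298. Collection time alone gave 0 genes by edgeR's test with 254 at an unadjusted p under 0.05, and with collection time as a covariate the slope with cleavage time was called for 1981. First- and second-cleavage times gave 1241 and 1493 calls. These clocks come from the same 8 embryos, and no test compared one clock with another.

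**Figure D5:**
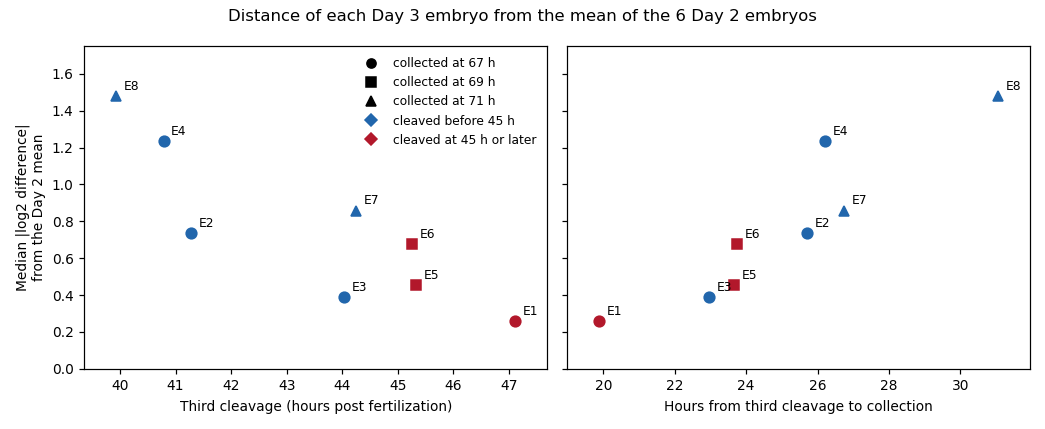
Median absolute log2 difference from the mean of the 6 Day 2 embryos over 5191 genes (y axis) for each Day 3 embryo, against the time of the third cleavage in hours post fertilization (left) and the hours from the third cleavage to collection (right), with colour for the group and shape for the hour of collection. Values run from 1.48 in E8 to 0.26 in E1, and E3 and E7 change places relative to their neighbours between the panels.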

How the data were processed

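mRNA of single blastomeres was sequenced by SCRB-seq. The authors assigned reads to cells, mapped them with STAR 2.5.2b to the Bos tau7 genome with ERCC sequences and deposited UMI counts per gene and cell from the Drop-seq pipeline. Strand use is not given in the sources used here, so antisense and copied genes may share counts. A deposited normalized table was not used. Genes are named by the symbols of the count table. Cleavage and collection times were those of the study's design, since the sample labels do not carry them.

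Cells with 2000 or more UMI were summed per embryo without the 92 ERCC rows. A Day 3 embryo held 294912 to 600185 UMI. No label says that embryos came from separate cultures, so p-values measure the spread between these embryos. Of 10772 genes, 5191 passed edgeR's filterByExpr. Late against early embryos, and a slope per hour of cleavage time, were fitted with edgeR 4.0.16 (quasi-likelihood F test, TMM, Benjamini-Hochberg adjusted p under 0.05). Rank correlations of CPM used exact permutation, two-sided. The steps were tested on simulated data. Members and gene lists were chosen with earlier results of these data known.

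Genes were named by rule: the 12 smallest p in each direction between groups (none was called), the 10 smallest in each direction of the slope, up to 4 of each list, and 21 further genes, of which the text names a part. A gene that this rule names is not reported here. Alternatives covered scaling, filter, tool, cells, embryos left out, the title mark p1 to p3, collection time and other clocks, and those for barcode set, depth, second cleavage, collection time alone and pairs of embryos were added after the data were seen.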

Additional observations from a re-analysis of the deposited data

Results flagged for a closer look

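In 1 of 148 values checked for an early embryo far from the other 4, such an embryo was found, where chance alone gives about 1 in 20. SF3B1, the splicing factor subunit given among the genes with the lowest p between the groups, measured 372 CPM in E3 and 711 to 842 CPM in E8, E4, E2 and E7. Late embryos, 3 in number, were not checked in this way.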

How the results depend on the processing

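No paired analysis was possible because the replicate numbers of the labels only count the blastomeres of an embryo. The comparison of late with early embryos gave 0 calls in most alternatives, but 257 with no filter on low counts, 412 with DESeq2, 402 with the second barcode set only, 999 with the Day 2 embryos in the fit and 873 with barcode set as a factor, and 0 to 688 when single embryos were left out, the highest without E3. The fits with no filter and with DESeq2 covered 10256 genes. Scaling by library size alone moved the median log2 fold change from 0.08 to 0.23. The slope with cleavage time gave 1216 calls with the title mark p1 to p3 as a factor, 1134 in the embryos marked p1 only, 0 with collection time alone, 7 without E1 and E8, 2 without E4 and E8, and 635 to 2045 with single embryos left out, while its other alternatives stayed within 1.5 times the count of 1857. The rank correlation gave 11 calls without the filter, 1298 with hours from the third cleavage to collection, and 0 to 1357 with single embryos left out, at 0 without E8, E4, E2, E6, E5 or E1 and highest without E3. With 7 embryos the smallest rank p is larger, so these counts also carry the smaller number of orders. Without E3, the interval from the third cleavage to collection differed by -5.00 h (exact permutation p = 0.0286), and leaving out single embryos gave differences from -5.00 to -2.835 h. Of 135 named genes tested for a slope, 19 calls were lost without E8, 115 without E1 and E8 and 116 without E4 and E8, and no called slope turned to a called slope of the opposite sign in any alternative run. Embryo number limits every test, with 3 late embryos and E1 as the only one after 46 h.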

Other observations

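Further genes were set beside the order of division, some with and some without a called slope. IL18, a cytokine, measured 314, 314, 224, 68.1 and 116 CPM in the early embryos and 101, 31.2 and 21.7 CPM in the late embryos, a slope of -0.54 per hour (SE 0.08, adjusted p = 0.000592), and 1.28 to 7.92 CPM on Day 2. RHEBL1, a small GTPase of the mTOR pathway, measured 409, 577, 163, 249 and 698 CPM in the early embryos and 819.7, 359 and 63.3 CPM in the late embryos, with a slope of -0.09 per hour (SE 0.14, adjusted p = 0.602). Its highest values were those of E6, E7 and E4, which come from both groups. GLRX2, a glutaredoxin, measured 82.4, 65.8, 67.8, 94.3 and 113 CPM in the early embryos and 85.5, 28.6 and 19.99 CPM in the late embryos, with a slope of -0.17 per hour (SE 0.10, adjusted p = 0.19), and COL1A1, a collagen chain, measured 118, 83.7, 37.3, 44.5 and 97.0 CPM in the early embryos and 101, 18.2 and 11.66 CPM in the late embryos, with a slope of -0.27 per hour (SE 0.12, adjusted p = 0.0941). Neither passed the test, and the Day 2 embryos held 0 to 2.56 CPM of GLRX2 and 0 to 3.26 CPM of COL1A1. RPS19 and RPL37, both K4 markers of the study, had slopes of -0.60 per hour (SE 0.10, adjusted p = 0.000922) and -0.55 per hour (SE 0.09, adjusted p = 0.00094).

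On the first dimension of a multidimensional scaling of the 8 embryos (1000 genes per pair, 61.2% of variance), E8 lay at -1.56, E4 at -1.22, E7 at -0.41, E2 at -0.31, E6 at 0.07, E3 at 0.77, E5 at 0.99 and E1 at 1.68. TMM factors ran from 0.82 in E8 and 0.89 in E4 to 1.13 in E1.

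TOMM40, the channel of mitochondrial protein import, IPO7, a nuclear import receptor, and HMGN3, a nucleosome-binding protein, were chosen after their values were seen, as genes whose CPM fell at every step of the order. TOMM40 measured 131, 74.7, 64.4, 49.8 and 35.6 CPM in the early embryos and 24.1, 23.4 and 23.3 CPM in the late embryos, IPO7 measured 113, 95.6, 84.8, 49.8 and 32.3 CPM in the early embryos and 28.5, 15.596 and 14.99 CPM in the late embryos and HMGN3 measured 268, 248, 129, 105 and 100.2 CPM in the early embryos and 98.6, 96.2 and 78.3 CPM in the late embryos. Their slopes were -0.40 per hour (SE 0.07, adjusted p = 0.00128), -0.47 per hour (SE 0.07, adjusted p = 0.000706) and -0.30 per hour (SE 0.06, adjusted p = 0.0023).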
